A study of Mus musculus with 15 samples.

Results

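The replication-dependent histone genes encode the linker histone H1 and the core histones H2A, H2B, H3 and H4 that are made in bulk while DNA is copied. Their transcripts were taken from ribosome profiling libraries of mouse embryonic stem cells (mESCs) as every entry of the count table whose GENCODE M21 symbol starts with Hist1h, Hist2h, Hist3h or Hist4h. This rule, which uses names and no measured value, picked 63 of 21727 transcripts. Of these, 61 have a coding sequence (CDS) and 2, *Hist1h2al* and *Hist3h2bb-ps*, have none. Among the 61 with a CDS are 6 H1, 16 H2A, 16 H2B, 10 H3 and 13 H4 transcripts. The Hist1 genes lie on chromosome 13, the Hist2 genes on chromosome 3, the Hist3 genes on chromosome 11 and *Hist4h4* on chromosome 6 of GRCm38. Of the 63, 29 passed the filter on low counts, CPM (counts scaled to the library size) over 2 in at least 14 of the 15 libraries, which 10085 transcripts passed.

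The cells were clones of the mESC line E14Tg2a.4. In the *Rps27-FLAG* line, 3 clones carried a homozygous 3xFLAG tag, placed by CRISPR at the C terminus of the endogenous ribosomal protein gene *Rps27*. In the *Rps27l-FLAG* line, 3 clones carried the same tag on its paralog *Rps27l*, and 3 WT clones carried no tag. All cultures received cycloheximide, which halts elongating ribosomes, before lysis. Libraries of ribosome-protected fragments (RPFs) were made from the whole ribosome pool of each of the 9 clones (total RPFs) and, in the 6 tagged clones, also from the ribosomes that an antibody to FLAG pulled down (IP RPFs). Each of the 5 conditions holds 3 libraries. Replicates are separately selected clones of a single parental line, and tests of conditions without a block for replicate or clone measure the spread between such clones. Library totals lay between 3972152 and 8064166 counts, and histone transcripts made up 0.344% to 0.482% of them. All 9 mESC markers examined (*Pou5f1*, *Sox2* and *Nanog* among them) were above CPM 2 in every library, with a summed CPM of 3980 to 5026. The 12 markers of endoderm, mesoderm, neuroectoderm and fibroblasts summed to 32.4 to 49.6 CPM. Of these, 1 (*Thy1*) was above CPM 2 in every library, and 3 (*Foxa2*, *T* and *Mixl1*) were at 0 in some library.

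DNA is wound around an octamer of H2A, H2B, H3 and H4, and H1 binds the linker DNA between octamers. The mRNAs of the replication-dependent genes carry no poly(A) tail. They end in a conserved stem-loop, which is bound by the stem-loop binding protein (encoded by *Slbp*) and takes part in their 3′ end processing, translation and decay. The genes sit in clusters and have been copied many times with little change, so that a footprint from one copy is often identical to a footprint from another.

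The aligned windows have the length of a footprint (28 nt). In each family, the window was chosen where the most copies agree, in steps of a codon. Copies of the most frequent CDS length in the family were aligned. The windows therefore show the greatest likeness found and not a typical one. They are read from GENCODE M21 and printed for the shared form and, where one exists, for the copy that differs from it. Capitals mark the bases that differ from the shared form, and positions are counted from the first base of the CDS. The first window of each pair is the form shared by most members of its family.

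H4, position 169, shared by 12 of 13 members: ggtgtgctgaaggtgttcctggagaacg
*Hist4h4*, chr6:136804184-136804211, minus strand: ggtgtCctCaaggtTttcctTgagaaTg
H2A, position 178, shared by 12 of 13 members aligned: acggccgagatcctggagctggcgggca
*Hist3h2a*, chr11:58954915-58954942, plus strand: acTgcTgagatcctggaATtggcTggTa
H2B, position 79, shared by 14 of 15 members aligned: ggcaagaagcgcaagcgcagccgcaagg
*Hist3h2ba*: ggcaagaaAcgcaaAcgGGgccgcaagg
H3, position 154, shared by 10 of 10 members: atccggcgctaccagaagtcgaccgagc

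*Hist4h4* differed from the shared H4 window at 5 bases, *Hist3h2a* from the shared H2A window at 6 and *Hist3h2ba* from the shared H2B window at 4. A footprint on the shared form of such a window aligns to many transcripts at once. Unique alignments were kept in the counting, so such a footprint could not be counted for any of them.

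The stem-loop at the 3′ end was searched for in the 150 nt after the stop codon, as a 6-nt stem of fixed ends around a 4-nt loop, 16 nt in all. It was found in 59 of the 61 members with a CDS (96.7%), against 73 of the 19230 listed transcripts with a CDS (0.38%), of which the 59 are a part. The 2 members without a match were *Hist1h2an* and *Hist2h2be*. The stem-loop began 22 to 59 nt after the stop codon, with a median of 32 nt. The forms that set the families apart, and that of *Hist1h4a*, are printed, with the stem in capitals and the loop in lower case.

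H1, H2A, H2B and H3, 35 members (*Hist1h1a*, *Hist2h2bb*, *Hist3h2a*, *Hist1h3b* among them): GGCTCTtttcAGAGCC
H1, H2A, H2B and H3, 9 members (*Hist1h1t*, *Hist1h2ba*, *Hist1h2bb*, *Hist2h2ab*, *Hist1h3c* among them): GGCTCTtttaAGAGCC
H4, 8 members (*Hist4h4* among them): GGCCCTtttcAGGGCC
H4, 2 members (*Hist1h4i* and *Hist2h4*): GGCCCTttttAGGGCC
H4, 2 members (*Hist1h4b* and *Hist1h4j*): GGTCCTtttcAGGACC
*Hist1h4a*: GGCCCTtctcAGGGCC

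The H4 members thus have 2 stems, neither of them found in another family, and the other families share 1 stem. The stems differ within their paired bases. The remaining 2 forms, in *Hist1h3g* and *Hist2h2ac*, have the stem of the other families with other loop bases.

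The first question is which histone transcripts these counts can see. Over the counted stretch of the CDS, 6365 of 20607 windows of 28 nt (30.9%) occurred in no other listed transcript. This share was 81.3% in H1, 26.4% in H4, 24.2% in H2B, 20.7% in H2A and 9.17% in H3. Within H1 it ran from 61.9% to 100%, whereas the median member of all families had 12.4%.

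In all 15 libraries, 9 members had 0 counts. Of these, 7 have a CDS and not 1 unique window: *Hist1h2ad*, *Hist1h2ag*, *Hist1h2ap* and *Hist2h2aa1* (0 of 330 windows each), *Hist1h4m* and *Hist1h4n* (0 of 249 each) and *Hist2h3b* (0 of 348). *Hist1h4m* and *Hist1h4n* shared all 249 windows with each other, and *Hist1h2ag* and *Hist1h2ap* shared 329. *Hist1h2ad* shared 327 windows with *Hist1h2ah*, and every window of *Hist2h2aa1* and *Hist2h3b* was also found in the listed transcript *Gm20634*. The other members at 0, *Hist1h2al* and *Hist3h2bb-ps*, have no CDS over which to count. For the 7 coding members a count of 0 therefore gives no bound on their translation.

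A further pair of coding members had no unique window but a few counts. *Hist1h2ah* (0 of 324 unique windows) had 6 counts in all, 0 to 2 in a library, and *Hist1h2bc* (0 of 318) had 1. All 52 coding members with at least 1 unique window had counts. The 34 members that did not pass the filter held 2816 counts, 0.766% of the 367592 counts of all members, and the highest count of any of them in a library was 28. *Hist2h2be* stood apart among them, with 255 of 318 windows unique but 0 to 5 counts in a library. It is among the 2 coding members without a stem-loop match. *Hist2h2be*, *Hist1h2ah* and *Hist1h2bc* are named here after their values were seen.

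**Figure D1:**
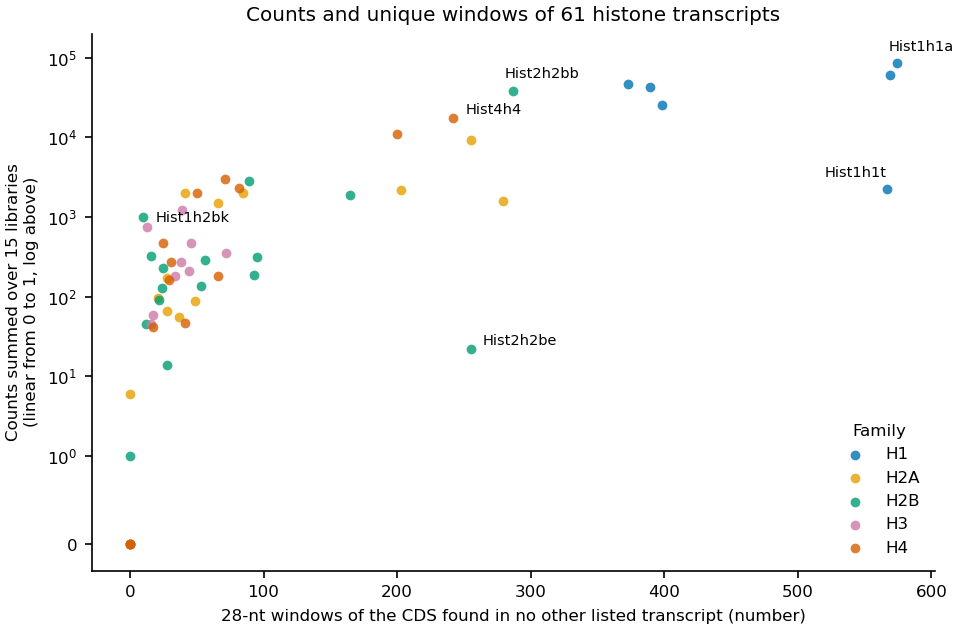
Counts summed over the 15 libraries (vertical axis, linear from 0 to 1 and logarithmic above) against the number of 28-nt windows of the CDS found in no other listed transcript (horizontal axis), for the 61 histone transcripts with a CDS, coloured by family. The 7 members at 0 counts lie at 0 windows, *Hist1h1a* has the most counts, and *Hist2h2be* has 22 counts on 255 unique windows.

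The H1 family held 71.3% of all histone counts, H2B 12.4%, H4 10.1%, H2A 5.18% and H3 0.963%. These shares follow counts and not protein output, since core histone positions are mostly shared. Levels were therefore also given per kilobase of unique windows in WT total RPFs. CPM here and below are normalized CPM, counts over the TMM-scaled library size on the CPM scale.

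Among H1 members, *Hist1h1a* (chr13:23763666-23764406, plus strand), a somatic linker histone gene, was the most counted, with a WT total RPF level of 828 ± 57.5 CPM (SD, n = 3) and 1443 ± 100 CPM per unique kb. *Hist1h1b*, another somatic linker histone gene, had 604 ± 39.2 CPM and 1062 ± 68.8 CPM per unique kb. *Hist1h1d* had 466 ± 23.7 CPM, *Hist1h1c* 430 ± 21.4 CPM and *Hist1h1e* 242 ± 41.0 CPM. *Hist1h1t*, the testis H1, had 19.2 ± 6.60 CPM although all 567 of its windows were unique. That is 33.8 ± 11.6 CPM per unique kb, well below the lowest of the other 5 H1 members (607, *Hist1h1e*).

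In H2B, *Hist2h2bb* (chr3:96269752-96270132, plus strand) had 383 ± 34.2 CPM, and its 1336 ± 119 CPM per unique kb did not separate from *Hist1h1a* beyond the SD of both. Of its 287 unique windows, 150 also occur in *Gm42743*, a lincRNA that overlaps it on the same strand and is not in the count table, so reads of both cannot be told apart there. *Hist1h2bb* had 29.9 ± 2.07 CPM on 89 unique windows, 336 ± 23.3 CPM per unique kb. *Hist1h2bk* had only 10 unique windows, and its 1009 ± 117 CPM per unique kb rests on 50 to 91 counts a library.

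In H2A, *Hist3h2a* reached 86.7 ± 13.4 CPM (340 ± 52.4 CPM per unique kb) and *Hist2h2ab* 23.2 ± 2.31 CPM (114 ± 11.4). In H4, *Hist4h4* (chr6:136801553-136804415, minus strand), whose window is printed above, had 176 ± 11.5 CPM and 728 ± 47.7 CPM per unique kb, and *Hist2h4* 107 ± 3.98 CPM and 534 ± 19.9. *Hist1h4a* (chr13:23760692-23761230, minus strand) had 4.81 ± 2.56 CPM on 25 unique windows, 193 ± 102 CPM per unique kb. In H3, the highest were *Hist1h3c* with 13.3 ± 1.50 CPM on 39 unique windows and *Hist1h3b* with 7.69 ± 1.66 CPM on 13. Densities per unique kb also depend on what counts as unique. With windows that differ by 1 mismatch no longer counted as unique, *Hist1h2bb* came to 996 CPM per unique kb, *Hist2h4* to 904 and *Hist1h3c* to 1901, and *Hist1h4a* had no unique window. The ordering across families by CPM thus differed from that per unique kb, where *Hist1h3b* (592 ± 128) and *Hist2h4* overlapped.

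The second question is whether a tag on either ribosomal protein changed histone translation as seen in total RPFs. Footprints alone do not tell a change in mRNA amount from a change in ribosomes per mRNA. The summed level of all 63 members was 3635 ± 151 CPM in WT, 3637 ± 161 CPM in *Rps27-FLAG* and 3653 ± 88.1 CPM in *Rps27l-FLAG* total RPFs (n = 3 each), so the 3 lines overlapped. With edgeR's quasi-likelihood test over 10085 transcripts, 0 of the 29 tested members passed an adjusted p of 0.05 in *Rps27-FLAG* against WT, in *Rps27l-FLAG* against WT or between the tagged lines, where 0% of all transcripts passed in each. The lowest adjusted p of a member was 0.999, 0.821 and 0.813 in these comparisons, the first 2 of which share the WT libraries. Without adjustment 0 members had p under 0.05, against 2.92%, 5.69% and 5.75% of all transcripts, and DESeq2 called 0 members. With the replicate number as a block 0 members passed as well, where 0.00992%, 1.43% and 1.36% of all transcripts did. The members' median log2 fold change was -0.02, -0.01 and 0.01. The widest values belonged to *Hist1h2aa*, at 0.58 and 0.67 in the tagged lines against WT with standard errors of 0.45, and adjusted p = 0.999 and 0.829. With the replicate number as a block its values were 0.51 and 0.66, with standard errors of 0.19. Its edgeR p was then 0.0166 and 0.00309 unadjusted, and 0.722 and 0.114 adjusted. It was the 1 member with an unadjusted p under 0.05 in these blocked fits, against 6.25% and 14.3% of all transcripts.

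The third question is whether ribosomes holding tagged Rps27 or Rps27l carried more or fewer histone footprints than all ribosomes of the same clone. Histone footprints were a larger share of IP RPFs than of total RPFs in all 6 tagged clones. The samples hold no IP library of WT clones. What the tagged ribosomes carried and what the pull-down itself changed therefore cannot be told apart. The summed level was 4218 ± 308 CPM in *Rps27-FLAG* IP RPFs and 4545 ± 308 CPM in *Rps27l-FLAG* IP RPFs, against 3637 and 3653 CPM in their total RPFs. Per clone, the log2 ratio of the sums was 0.21 ± 0.043 in *Rps27-FLAG* (0.16 to 0.25) and 0.31 ± 0.064 in *Rps27l-FLAG* (0.26 to 0.39). It was the same to 2 decimals without *Hist1h1a*, the member with the most counts. H1 members alone gave 0.21 and 0.32, and core histones alone 0.23 and 0.31. The 34 members that were not tested gave 0.24 ± 0.074 and 0.31 ± 0.25, from 154 to 225 counts a library.

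**Figure D2:**
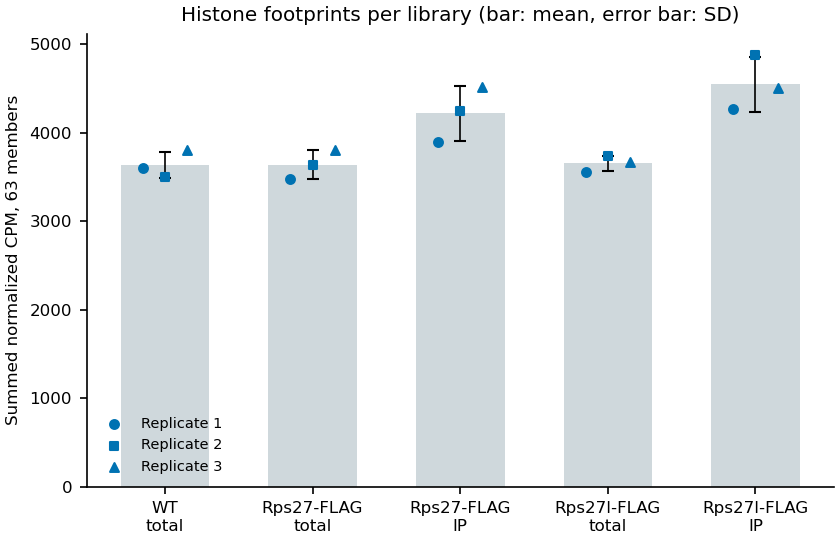
Summed normalized CPM of the 63 histone transcripts in each library (points, marker shapes for replicates), with the mean (bars) and SD (error bars) of the 3 libraries of each condition. The IP RPF library lies above the total RPF library in all 6 tagged clones, while the total RPFs of the 3 lines overlap.

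In the fit without a block, which treats the IP and total libraries as separate samples, 0 of 29 members passed in *Rps27-FLAG* (5.67% of all 10085 transcripts passed) and 7 had an unadjusted p under 0.05 (22.1% of all). DESeq2 called 1 (6.49% of all). Higher calls made up 0.327% of all transcripts and lower calls 5.34%. In *Rps27l-FLAG*, 2 members passed, both higher in IP RPFs (3.1% of all transcripts passed, 0.833% higher), and DESeq2 called 5 (4.53% of all). The median log2 fold change of the 29 members was 0.22 in *Rps27-FLAG* and 0.30 in *Rps27l-FLAG*, against -0.01 and -0.03 for all transcripts. In each line 28 of 29 were above 0, against 48.3% and 43.7% of all transcripts.

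Both libraries of a tagged clone carry the same replicate number. A fit with the clone as a block takes out differences in level between clones. Its standard errors are moderated over all transcripts and can be smaller than the spread of a single member's clone ratios. With the clone as a block, 15 of 29 members passed in *Rps27-FLAG*, all higher in IP RPFs, where 41.2% of all transcripts passed and 18.3% were higher. In *Rps27l-FLAG*, 17 of 29 passed, all higher, where 31% of all transcripts passed and 12% were higher. IP exceeded total in all 3 clones for 23 of 29 members in each line, against 28.9% and 23.7% of all transcripts, and in all 6 clones for 19 of 29, against 16.4%. The lowest IP value exceeded the highest total value for 6 of 29 members in *Rps27-FLAG* and 9 of 29 in *Rps27l-FLAG*, against 11.3% and 9.11% of all transcripts.

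The members called without a block were *Hist1h1a* and *Hist2h2bb*, both in *Rps27l-FLAG*. *Hist1h1a* had 799, 814 and 876 CPM in *Rps27l-FLAG* total RPFs and 952, 1085 and 1090 CPM in IP RPFs. The lowest IP value was above the highest total value, and the log2 fold change was 0.33 (SE 0.065, edgeR adjusted p = 0.0340). In *Rps27-FLAG* the same transcript had 780, 863 and 913 CPM in total RPFs and 887, 1022 and 1081 CPM in IP RPFs, which overlap, with a log2 fold change of 0.23 (SE 0.091, adjusted p = 0.196, and 1.01e-12 with the clone as a block).

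*Hist2h2bb*, an H2B gene of the chromosome 3 cluster, had 352, 360 and 393 CPM in *Rps27l-FLAG* total RPFs and 434, 488 and 507 CPM in IP RPFs, without overlap. Its log2 fold change was 0.37 (SE 0.072, edgeR adjusted p = 0.0332). In *Rps27-FLAG* it had 331, 405 and 415 CPM in total RPFs and 372, 482 and 486 CPM in IP RPFs, and the log2 fold change was 0.22 (SE 0.12, adjusted p = 0.353, and 3.91e-11 with the block). Within each clone, IP was above total, with log2 ratios of 0.17, 0.25 and 0.23 in *Rps27-FLAG* and 0.30, 0.44 and 0.37 in *Rps27l-FLAG*.

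Among the linker histones, 6 of 6 H1 members were called higher under the block in *Rps27-FLAG* (18.3% of all transcripts) and 5 of 6 in *Rps27l-FLAG* (12% of all). *Hist1h1b* had a log2 fold change of 0.21 and 0.32 in the 2 lines. *Hist1h1c* and *Hist1h1d*, named after their values were seen, had 0.34 and 0.32 in *Rps27l-FLAG*, with adjusted p = 0.0543 and 0.0703 without the block.

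In H4, 5 of 6 members were called higher in each line under the block, where 18.3% and 12% of all transcripts were. *Hist2h4* had 0.32 (SE 0.078, adjusted p = 0.0577 without the block) in *Rps27-FLAG* and 0.29 in *Rps27l-FLAG*, and *Hist4h4* had 0.21 and 0.25. *Hist1h4a* had the highest fold change of all members in *Rps27-FLAG*, 0.72 (SE 0.41, adjusted p = 0.347, and 0.00123 with the block), and 0.49 in *Rps27l-FLAG*. Its log2 ratios per clone were 0.84, 0.71 and 0.68 in *Rps27-FLAG* and 0.23, 0.73 and 0.54 in *Rps27l-FLAG*, on 19 to 52 counts a library.

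Calls in the other core histones were counted in the same way, beside the same 18.3% and 12% of all transcripts called higher in *Rps27-FLAG* and *Rps27l-FLAG*. In H2A, 2 of 6 members were called under the block in *Rps27-FLAG* and 1 of 6 in *Rps27l-FLAG*. *Hist2h2ab* had 0.34 (adjusted p = 0.00215 with the block) in *Rps27-FLAG* and 0.11 in *Rps27l-FLAG*. In H2B, 2 of 6 and 4 of 6 were called, *Hist1h2ba* with 0.34 (adjusted p = 0.624, and 0.00518 with the block) and 0.30 among them. The log2 ratios of *Hist1h2ba* per clone were 0.45, -0.001 and 0.46 in *Rps27-FLAG* (SD 0.26, beside an SE of 0.11 with the block). In *Rps27l-FLAG* they were 0.33, 0.43 and -0.094. In H3, 0 of 5 and 2 of 5 were called. *Hist1h3b* had 0.35 and 0.51, and *Hist1h3c* 0.10 and 0.45, in *Rps27-FLAG* and *Rps27l-FLAG*. The lowest values were those of *Hist1h3d* in *Rps27-FLAG* (-0.31) and *Hist1h2bm* in *Rps27l-FLAG* (-0.06), neither of them called and both named after their values were seen. Differences between families were not tested.

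**Figure D3:**
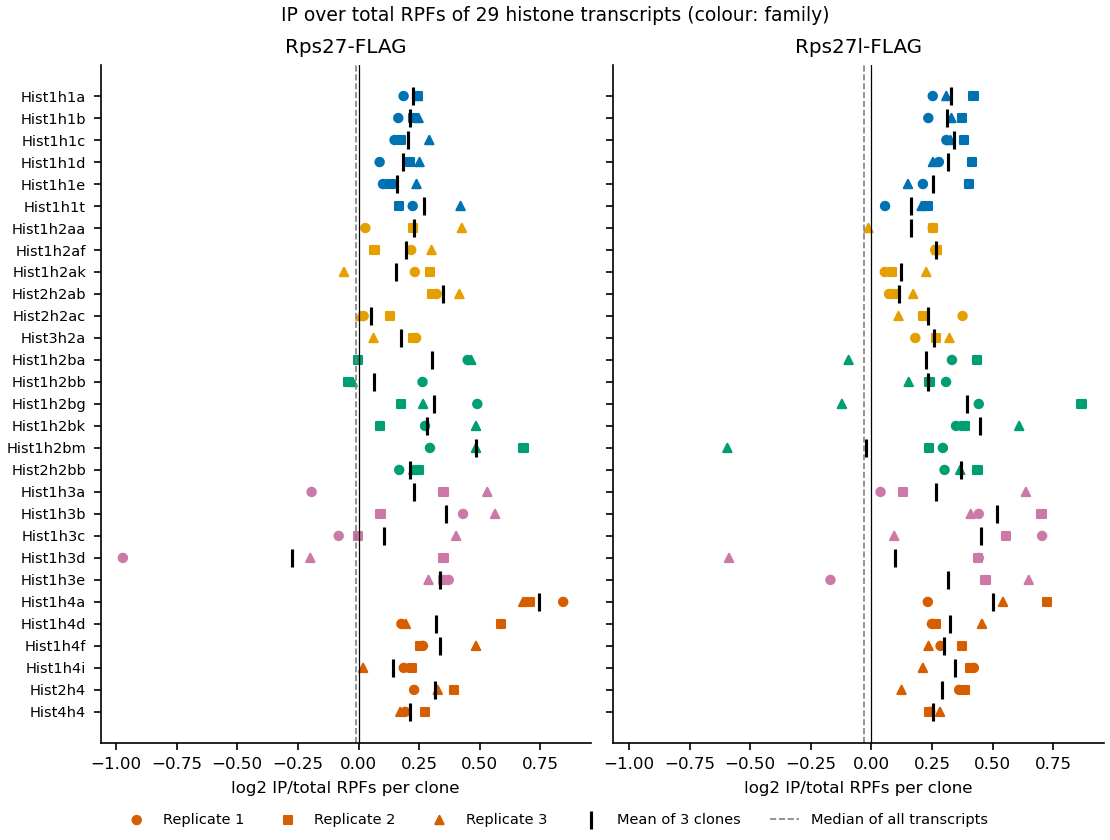
Log2 ratio of normalized CPM in IP over total RPFs (horizontal axis) for the 29 tested histone transcripts, 1 row each, in the 3 clones of *Rps27-FLAG* (left) and *Rps27l-FLAG* (right), with colours for family, marker shapes for replicates, black ticks for the mean of 3 clones and a dashed line for the median of all transcripts. H1 clones lie between 0.057 and 0.42 and H4 clones between 0.019 and 0.84, all on the right of 0, while H3 clones run from -0.97 to 0.70 over both lines.

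Histone messages are short, and the IP ratio fell with CDS length over all transcripts. Tested members had a CDS of 309 to 669 nt with a median of 390 nt, against a median of 1440 nt for all tested transcripts. In the shortest of 20 length bins (511 transcripts, median CDS 333 nt) the median log2 fold change was 0.21 in *Rps27-FLAG* and 0.18 in *Rps27l-FLAG*. In the longest (505 transcripts, median 6429 nt) it was -0.40 and -0.32. The members' median was 0.22 and 0.30.

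With the length trend removed from each library, the members' median was 0.09 in *Rps27-FLAG* and 0.17 in *Rps27l-FLAG*, against 0.02 and 0.01 for all transcripts. In either line 0 members passed without the block. *Hist1h1a* and *Hist2h2bb* thus lost their calls. Of all transcripts 0.278% and 0.0892% still passed. With both the block and the length removed, 5 members were higher in *Rps27-FLAG* (31.1% of all transcripts called, 18.1% higher) and 7 in *Rps27l-FLAG* (22.2% called, 14.3% higher). The 5 were *Hist1h1a*, *Hist1h1b*, *Hist1h1c*, *Hist1h4a* and *Hist2h4*, and the 7 were *Hist1h1a*, *Hist1h1b*, *Hist1h1c*, *Hist1h1d*, *Hist1h1e*, *Hist2h2bb* and *Hist2h4*. In *Rps27-FLAG* the members' share is then 5 of 29 beside a background of 18.1%.

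**Figure D4:**
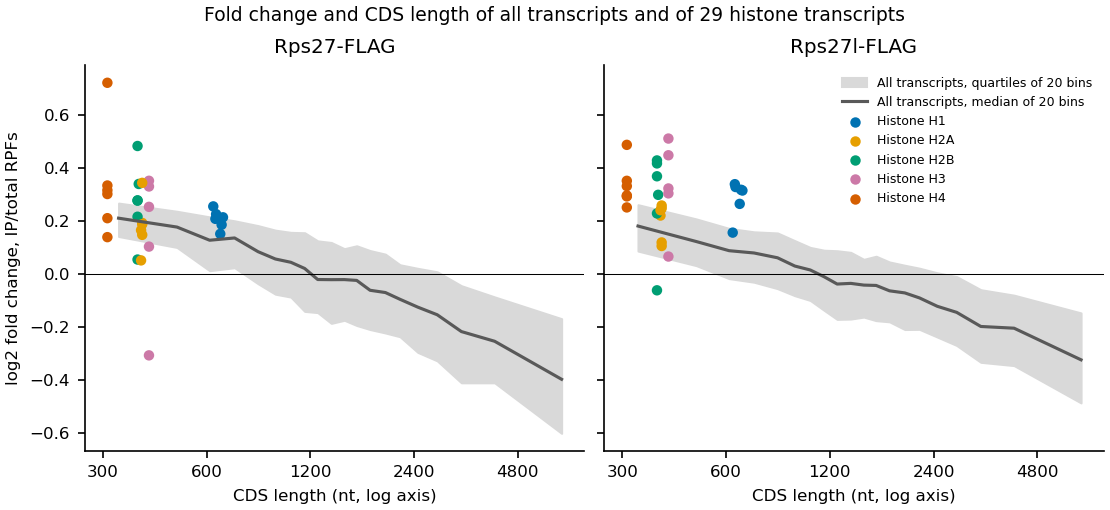
Log2 fold change of IP against total RPFs (vertical axis) and CDS length in nt (horizontal axis, logarithmic) in *Rps27-FLAG* (left) and *Rps27l-FLAG* (right), with the median and quartiles of all transcripts in 20 length bins (line and grey band) and the 29 histone transcripts as points coloured by family. The line falls from 0.21 and 0.18 in the shortest bin to -0.40 and -0.32 in the longest, and the histones lie at its short end.

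The fourth question is whether the 2 kinds of tagged ribosome differed in histone footprints. The difference in IP effects, *Rps27l-FLAG* minus *Rps27-FLAG*, was tested with the clone within each line in the fit and a limit of 0.25 on the absolute log2 difference. Of the 29 members 0 were called, against 57 transcripts (0.565%) of 10084, and 7 members had an unadjusted p under 0.05 (12.1% of all). DESeq2 called 0 (0.0893% of all). The members' median difference was 0.08, with 20 of 29 above 0 (49% of all). Without the limit, 1 member was called (1.49% of all), *Hist2h2bb*, at 0.15 (SE 0.042, edgeR adjusted p = 0.0303). Next by adjusted p were *Hist1h1c* with 0.14 (adjusted p = 0.0661) and *Hist1h1d* with 0.14 (adjusted p = 0.0676), named after their values were seen, while *Hist1h1a* had 0.10 (adjusted p = 0.201). The largest differences either way were 0.40 for *Hist1h3d* (edgeR adjusted p = 0.777) and -0.51 for *Hist1h2bm* (0.639), also named after their values were seen.

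The study's sample list gives each replicate number, 1 clone of every line, as a sequencing batch. Per the methods, the libraries of a replicate were also pooled before rRNA depletion and reverse transcription. Sequencing, this shared preparation and the set of clones cannot be told apart. A comparison of the 3 batches over the 9 total RPF libraries, added after the data were seen, called 10 of 29 members (12.3% of all transcripts), and over the 6 IP RPF libraries of the same tagged clones 4 (3.72%). Both comparisons called 327 of all 10085 transcripts (3.24%), of 375 called in the IP RPF libraries. All 4 members were also among the 10.

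These 4 were *Hist1h1t*, *Hist1h2aa*, *Hist1h2ba* and *Hist3h2a*. The first 3 encode testis forms of H1, H2A and H2B. *Hist1h1t* and *Hist1h2aa* are named after their values were seen, as are *Hist1h1e* and *Hist1h4d*. *Hist1h1t* (chr13:23695814-23696725, plus strand) had 34.9, 29.3 and 25.9 CPM in the replicate 1 total RPF libraries of *Rps27-FLAG*, *Rps27l-FLAG* and WT. In replicate 2 it had 18.9, 24.2 and 18.9 CPM, and in replicate 3 11.4, 14.9 and 12.7 CPM. Replicate 3 lay below replicate 1 in all 3 lines, with a log2 difference of -1.21 (edgeR adjusted p = 6.25e-04 over the 3 batches).

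*Hist1h2aa* had 27.3, 23.2 and 15.1 CPM in replicate 1, 11.9, 18.5 and 9.2 CPM in replicate 2, and 8.2, 9.3 and 7.9 CPM in replicate 3, in the same order of lines. The log2 difference of replicate 3 from replicate 1 was -1.35 (adjusted p = 0.00144). For *Hist1h2ba* it was -0.87 (adjusted p = 0.00403) and for *Hist3h2a* -0.46 (adjusted p = 0.0425). In IP RPFs the same differences were -1.15, -1.45, -1.21 and -0.56 for *Hist1h1t*, *Hist1h2aa*, *Hist1h2ba* and *Hist3h2a*.

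*Hist1h4a* ran the other way, with 3.2, 3.8 and 3.2 CPM in replicate 1 and 6.7, 6.3 and 7.8 CPM in replicate 3 total RPFs, a log2 difference of 1.02 (adjusted p = 0.00384). Replicate 2 was like replicate 1, with 3.0, 2.6 and 3.5 CPM. Of the remaining 5 members called, *Hist1h1e* (-0.44) was lower in replicate 3 and *Hist1h4d* (0.57), *Hist2h2bb* (0.25), *Hist1h1b* (0.19) and *Hist1h1a* (0.18) were higher. The call counts rest on few libraries: without WT the total RPF comparison called 4 members, without *Rps27-FLAG* 1 (*Hist1h1t*, adjusted p = 0.0360) and without *Rps27l-FLAG* 11, where 2.56%, 1.3% and 20.9% of all transcripts were called. The summed mESC markers were 4367 to 4545 CPM in replicate 1, 3980 to 4212 in replicate 2 and 4211 to 4338 in replicate 3. The markers of other cell types were 40.4 to 49.6, 35.5 to 41.2 and 32.4 to 39.7 CPM, and their part in the result was not tested.

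**Figure D5:**
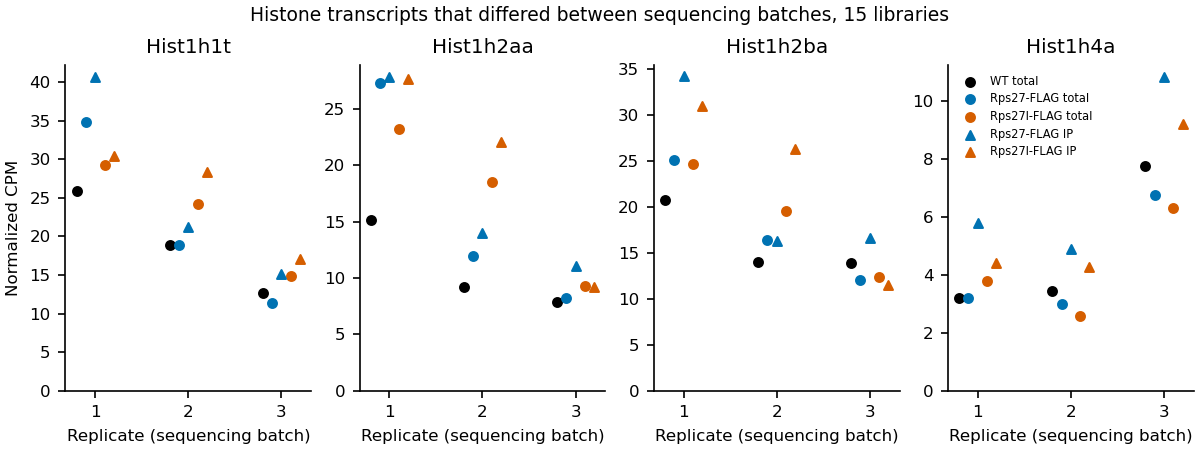
Normalized CPM of *Hist1h1t*, *Hist1h2aa*, *Hist1h2ba* and *Hist1h4a* (panels, each axis from 0) in every library, by replicate number, which is the sequencing batch, with circles for total RPFs, triangles for IP RPFs and colours for lines. The first 3 transcripts are lower in replicate 3 than in replicate 1 in every line and fraction, and *Hist1h4a* is higher.

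*Hist1h2aa* (chr13:23934462-23934851, plus strand) and *Hist1h2ba* (chr13:23933773-23934156, minus strand) start 305 bases apart and are transcribed away from each other, so that their promoters share this stretch. The 250 bases before the RefSeq start of *Hist1h2aa* (GRCm38.p6, chr13:23934187-23934436, plus strand) are printed for this shared promoter. Capitals mark the motif CCAAT, the TATA box as TATAAA, and the octamer bound by Oct factors as ATTTGCAT, searched on both strands.

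*Hist1h2aa* promoter: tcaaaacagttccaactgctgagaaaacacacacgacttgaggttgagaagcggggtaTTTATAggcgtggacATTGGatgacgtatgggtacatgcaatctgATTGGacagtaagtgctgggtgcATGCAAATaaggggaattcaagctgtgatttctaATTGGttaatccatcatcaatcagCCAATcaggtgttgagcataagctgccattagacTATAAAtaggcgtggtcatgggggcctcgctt

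The first motif occurred 1 time on the plus strand and 3 times on the minus strand, the TATA box 1 time on each strand, and the octamer 1 time on the minus strand. No match overlaps another. Of 32851 mouse promoter windows of the same length, 33.8% held the first motif, 12.4% the TATA box and 1.60% the octamer on either strand.

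Genes around histone supply were examined as lists. Of 11 replication-independent histone variants, whose mRNAs are made outside S phase as well, all were tested. In *Rps27l-FLAG* 3 were higher in IP RPFs, where 0.833% of all transcripts were. They were *H3f3a* (0.32, edgeR adjusted p = 0.0447) and *H3f3b* (0.30, adjusted p = 0.0224), which both encode the replacement form of H3, and *H2afz* (0.31, adjusted p = 0.0226), which encodes H2A.Z. In *Rps27-FLAG* 0 passed. With the block 9 of 11 were higher in *Rps27-FLAG* (18.3% of all transcripts) and 6 of 11 in *Rps27l-FLAG* (12% of all). With the length trend removed as well 1 and 5 were higher (18.1% and 14.3% of all). Their median log2 fold change was 0.23 in *Rps27-FLAG* and 0.15 in *Rps27l-FLAG*, beside 0.22 and 0.30 for the replication-dependent members. It was 0.05 and 0.04 with the length trend removed, against 0.02 and 0.01 for all transcripts.

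Of 28 genes of histone mRNA transcription, 3′ end processing and decay, 27 were tested. In *Rps27-FLAG* 4 were lower in IP RPFs, where 5.34% of all transcripts were: *Smg1* (-0.76), *Ncbp1* (-0.35), *Cpsf2* (-0.31) and *Cpsf1* (-0.29). In *Rps27l-FLAG*, where 2.27% of all transcripts were lower, *Smg1*, a kinase of mRNA decay, was lower (-0.50). *Smg1* was also the gene of this list called between the IP effects (0.26, edgeR adjusted p = 0.0160), where 0.565% of all transcripts were called. The fit with the block called 5 of 27 higher and 7 lower for *Rps27-FLAG*, where 18.3% of all transcripts were higher and 22.9% lower. For *Rps27l-FLAG* it called 3 higher and 7 lower, where 12% and 19% of all were. With the length trend removed as well, 9 were higher in each line, and 3 and 1 were lower, *Smg1* in *Rps27-FLAG* at -0.27. *Slbp* had 222 ± 4.94 CPM in WT total RPFs, 223 ± 13.0 CPM in total and 270 ± 23.5 CPM in IP RPFs of *Rps27-FLAG*, and 227 ± 4.02 CPM and 254 ± 6.18 CPM in *Rps27l-FLAG*. Its IP difference was 0.27 (adjusted p = 0.0918) and 0.17 (adjusted p = 0.151) on the log2 scale without the block. With the block *Slbp* was higher in both lines (adjusted p = 7.35e-15 and 4.28e-05), also with the length trend removed (0.20 and 0.13, adjusted p = 2.43e-08 and 0.00315).

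Of 31 histone chaperones and importins, 30 were tested. In *Rps27-FLAG* 5 were lower in IP RPFs (5.34% of all transcripts were), among them *Cabin1* (-0.68), *Ipo4* (-0.67) and *Ubn1* (-0.63). In *Rps27l-FLAG* 2 were higher, *Npm1* (0.34) and *Ncl* (0.31), and 2 lower, *Cabin1* (-0.58) and *Mms22l* (-0.37). Of all transcripts 0.833% were higher and 2.27% lower in *Rps27l-FLAG*. Under the block, 9 of 30 were higher and 11 lower for *Rps27-FLAG* (18.3% and 22.9% of all transcripts), and 8 and 7 for *Rps27l-FLAG* (12% and 19% of all). With the length trend removed as well the counts were 16 and 8, and 14 and 4, beside 18.1% and 13%, and 14.3% and 7.85%, of all transcripts. Of 30 genes of DNA replication in S phase, 3 were lower in *Rps27-FLAG* (5.34% of all transcripts were), *Pole* (-0.33), *Rrm1* (-0.30) and *Mcm3* (-0.30). In *Rps27l-FLAG* 0 of the 30 passed (3.1% of all transcripts did). The block gave 6 of 30 higher and 7 lower for *Rps27-FLAG* (18.3% and 22.9% of all transcripts), and 4 of each for *Rps27l-FLAG* (12% and 19% of all). These became 11 and 6, and 12 and 0, with the length trend removed as well (18.1% and 13%, and 14.3% and 7.85%, of all). Directions of single genes called both times turned, *Pole* in *Rps27l-FLAG* from -0.20 to 0.11 for example. With the length trend removed and no block, 0 genes of the 4 lists passed in either line or between the IP effects. Between total RPFs of the lines 0 genes of these 4 lists passed.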

How the data were processed

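The measured values were RPFs in 15 mESC libraries. Per the labels and methods, the authors trimmed reads, removed duplicates by molecular identifiers, discarded rRNA, tRNA and snRNA reads, aligned to GRCm38 transcripts and kept unique alignments (cutadapt 2.4, UMI-tools 1.0.1 and Bowtie2 2.3.4.3 in the submitters' processing notes). The deposited values are counts of A sites in the CDS, leaving out 15 codons at its start and 5 at its end, not normalized. A read that fits several histone copies was therefore lost before counting.

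Conditions came from the labels and sequencing batches from the study's sample list. A clone's IP and total libraries share a replicate number. Deviations from the condition mean correlated across transcripts between these 2 libraries with r from 0.468 to 0.790 in the 6 clones (median 0.558). Total libraries of different lines with the same replicate number gave -0.164 to 0.713 over 9 pairs (median 0.443). These ranges overlap, so the correlations do not tell pairing by clone from a shared replicate number. Libraries of a condition differed by chi-squared per degree of freedom from 1.78 to 10.3.

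Without the 13 transcripts of the mitochondrial genome, 10085 transcripts with CPM over 2 in at least 14 libraries were tested with edgeR 4.0.16 in R 4.3.3 (quasi-likelihood F-test, Benjamini-Hochberg over all of them, threshold 0.05, TMM for IP and total libraries separately). The comparison of IP effects also used a limit of 0.25 and left out *Tmod3*, as in the study. Log2 ratios of single clones had 0.5 counts added. Alternatives were DESeq2 1.42.0, voom with limma 3.58.1, other scalings and filters, the replicate block, the CDS length trend removed by loess (span 0.5), and each clone left out. On simulated data without clone or batch effects, tests between the tagged lines in total RPFs and between the IP effects were tried. The test of IP against total RPFs in *Rps27-FLAG* without a block was tried there too. Fits of IP against total RPFs with the block, and fits with the length trend removed, were not.

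Windows of 28 nt, CDS positions and stem-loops came from GENCODE M21 (21713 of 21727 transcripts matched, 14 not). Windows were compared on the sense strand with all listed transcripts, assuming an A site 15 nt from the 5′ end of a footprint. Promoters came from RefSeq, in which 63 of 63 members matched by symbol or synonym.

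Named members were those at 0 counts, those with the largest changes among members called in a comparison (with the block where none was called without), the 2 highest in WT in each family, *Hist2h2bb* and *Hist1h4a*. Others are named as chosen after their values were seen. The members, lists and tests were chosen with earlier results of these data known.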

Additional observations from a re-analysis of the deposited data

Results flagged for a closer look

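*Hist2h2bb* stood out for a difference between the IP effects of the 2 tagged lines. The log2 IP effect was 0.15 higher in *Rps27l-FLAG* than in *Rps27-FLAG* (SE 0.042, edgeR's quasi-likelihood F-test in which clones were a term, adjusted p = 0.0303 over 10084 transcripts). The difference lies under the limit of 0.25 of the designed comparison. Per clone the log2 IP ratios were 0.17, 0.25 and 0.23 in *Rps27-FLAG* and 0.30, 0.44 and 0.37 in *Rps27l-FLAG*, so that all 3 *Rps27l-FLAG* clones were above all 3 *Rps27-FLAG* clones. Of all transcripts 1.49% passed in this fit without the limit. The call was lost with DESeq2 (lowest adjusted p of a member 0.227), without *Rps27-FLAG* replicate 1 (0.175), without *Rps27l-FLAG* replicate 2 (0.238) and without *Rps27l-FLAG* replicate 3 (0.0822). Without the clone in the fit 0 members and 0% of all transcripts passed. With the CDS length trend removed and no limit, 3 members passed (1.34% of all), *Hist2h2bb* (0.19, adjusted p = 0.00508), *Hist1h1c* (0.17, adjusted p = 0.0147) and *Hist1h1d* (0.17, adjusted p = 0.0148).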

How the results depend on the processing

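Among comparisons of total RPFs between lines, all alternatives run gave 0 members, also with the replicate block, where up to 1.43% of all transcripts passed. For IP against total RPFs the count of members called depended most on the pairing of libraries by clone. In *Rps27-FLAG* it was 0 without a block, 15 with the replicate block, 5 with the block and the length trend removed, 13 to 14 with the block and a clone left out (added after seeing the data), 1 with DESeq2, and 0 to 8 with a clone left out and no block, the 8 without replicate 1. In *Rps27l-FLAG* it was 2 without a block, 17 with the replicate block, 7 with the block and the length trend removed, 11 to 15 with the block and a clone left out, 5 with DESeq2, 5 without a filter, 0 with the length trend removed, and 0 to 2 with a clone left out, being 0 without replicate 1 or without replicate 2. All members called under these settings were higher in IP RPFs. The calls over all 10085 transcripts moved too. With a clone left out and no block, 1817 passed in *Rps27-FLAG* without replicate 1, and 0 without replicate 2 or replicate 3. In *Rps27l-FLAG* 319 passed without replicate 3, and 0 without replicate 1 or replicate 2. With the block and a clone left out, 3311 to 3384 passed in *Rps27-FLAG* and 2394 to 2511 in *Rps27l-FLAG*. Without a filter, 336 of 16858 passed in *Rps27l-FLAG*. For the difference between IP effects, 1 member passed with no limit on the fold change against 0 with it.

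With the length trend removed, members above 0 went from 28 to 22 of 29 in *Rps27-FLAG* and from 28 to 25 in *Rps27l-FLAG*. Of all transcripts 53.7% and 52.5% were then above 0. Among the members named by rule, 3 that were not called turned sign. *Hist1h2bb* in *Rps27-FLAG* went from 0.06 to -0.13 with the length trend removed, -0.11 with the block and length, -0.036 with the block without replicate 1, and -0.038 to 0.10 over clones left out, the lowest without replicate 1. *Hist1h3c* in *Rps27-FLAG* went from 0.10 to -0.071 with the length trend removed, -0.088 with the block and length, -0.047 with the block without replicate 3, and -0.045 to 0.19 over clones left out, the lowest without replicate 3. *Hist2h2ab* in *Rps27l-FLAG* went from 0.11 to -0.039 with the length trend removed, with or without the block. The cause was not tested. Between batches, the total RPF count of 10 members became 4 in the 6 IP RPF libraries and 1 to 11 with a line left out. With windows allowed to differ by 1 mismatch, 30 rather than 9 coding members had no unique window, and levels per unique kb of *Hist1h2bb*, *Hist2h4* and *Hist1h3c* rose by over 1.5 times. Intervals and counts per kb for members with few unique windows rest on the assumed footprint length, and core histone levels describe the unique positions alone.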
